A study of Mus musculus with 8 samples.

Results

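TCF7L1 is a DNA-binding factor of the TCF/LEF family, and this comparison sets mouse embryonic stem (ES) cells with 1 copy of it put back, titled QT7L1, against the cells that lack the whole family, titled QKO. Members were taken by sample title: QT7L1 1 and 2 and QKO 1 and 2, which are 4 of the 8 RNA sequencing libraries. All differences are QT7L1 over QKO unless another pair is named. The cells of every group were E14TG2a, an ES cell line of strain 129/Ola, and were kept for 48 h in serum medium with LIF, the cytokine that maintains ES cells. QKO carries TCF7 -/-, TCF7L1 -/-, TCF7L2 -/- and LEF1 -/-. QT7L1 was made from QKO cells and shares the loss of TCF7L2 and LEF1. Its genotype tag gives TCF7 as +/- and TCF7L1 as -/-, which is the opposite of its title, and the tag of the sister group QT7 is exchanged in the same way. Groups follow the titles here, and which factor the QT7L1 cells carry cannot be told apart from the labels alone. The other groups are WT, unedited E14TG2a cells, and QT7, titled for TCF7. Numbers 1 and 2 are clones A and B in QKO and QT7L1, so the spread within a group is the spread between 2 clones, and anything that arose in the making of the clones is part of it.

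TCF/LEF factors bind DNA through an HMG box. With beta-catenin, which accumulates when a Wnt ligand reaches its receptor, they raise transcription of their targets, and without it they recruit TLE corepressors and hold the same targets down. TCF7L1 is best known in ES cells as the repressor of the family, acting on pluripotency genes such as Nanog, whereas TCF7 is usually described as an activator.

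The 4 libraries held between 32602246 and 37794476 counts, and the 8 of the series between 31573536 and 43362627. On the first principal component, with 42.33% of the variance, the QKO libraries lay at 61.25 and 66.94 and the QT7L1 libraries at -31.68 and -34.66. Replicates correlated across genes at r = 0.9903 in QKO and 0.9912 in QT7L1. ES cell markers summed to 6906 and 6129 counts per 1e+06 counts (CPM) in QKO and 6780 and 6971 CPM in QT7L1. The 8 markers of fibroblasts, which can enter ES cultures as feeder cells, summed to 113.1 CPM in QKO 1, 36.01 CPM in QKO 2, and 36.58 and 47.26 CPM in QT7L1. Their part in the results was not tested, and 3 of these markers (Postn, Dcn, Lum) were too low to be tested.

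The TCF/LEF transcripts were measured first. Tcf7l1 (chr6:72626378-72789254, minus strand of GRCm38) was at 38.3 and 39.1 CPM in QKO and 36.9 and 27.5 CPM in QT7L1, against 73.6 and 68.8 CPM in WT. Tcf7 (chr11:52252371-52283014, minus strand) was at 7.97 and 19.7 CPM in QKO and 10.1 and 12.7 CPM in QT7L1, with WT at 59.6 and 61.9 CPM. Neither gene passed the test, with log2 differences of -0.26 ± 0.15 (SE, adjusted p = 0.217) for Tcf7l1 and -0.29 ± 0.37 (adjusted p = 0.594) for Tcf7. Counts per gene include transcripts of the disrupted alleles, so these values name neither factor as the one put back. Tcf7l2 read 7.32 and 7.40 CPM in QKO and 5.51 and 4.72 CPM in QT7L1 (adjusted p = 0.0837). Lef1 fell from 0.90 and 0.804 CPM to 0.212 and 0.213 CPM, a log2 difference of -1.98 ± 0.58 (adjusted p = 0.0286). The Lef1 call was lost without any of the 4 libraries, with adjusted p from 0.0927 to 0.133.

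The difference between QT7L1 and QKO reached across the transcriptome. Of 16515 genes tested, 4912 were called at an adjusted p under 0.05 in edgeR's quasi-likelihood test (29.7% of those tested), 2623 of them higher in QT7L1 (15.9%) and 2289 lower (13.9%). Rises were the larger changes. At least 2-fold rises were seen in 1271 genes (7.7%) and 2-fold falls in 635 (3.84%), and the median log2 difference was 0.97 among genes that rose and -0.64 among those that fell. The libraries of the groups did not overlap for 11731 genes (71.0%). Without QKO 2 or without QT7L1 2, 1773 and 1974 genes were called, and the other 2 omissions left 2884 (QKO 1) and 2378 (QT7L1 1). Of 14166 protein-coding genes tested, 2492 rose and 2118 fell, and of 1164 processed pseudogenes, 24 rose and 54 fell.

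**Figure D1:**
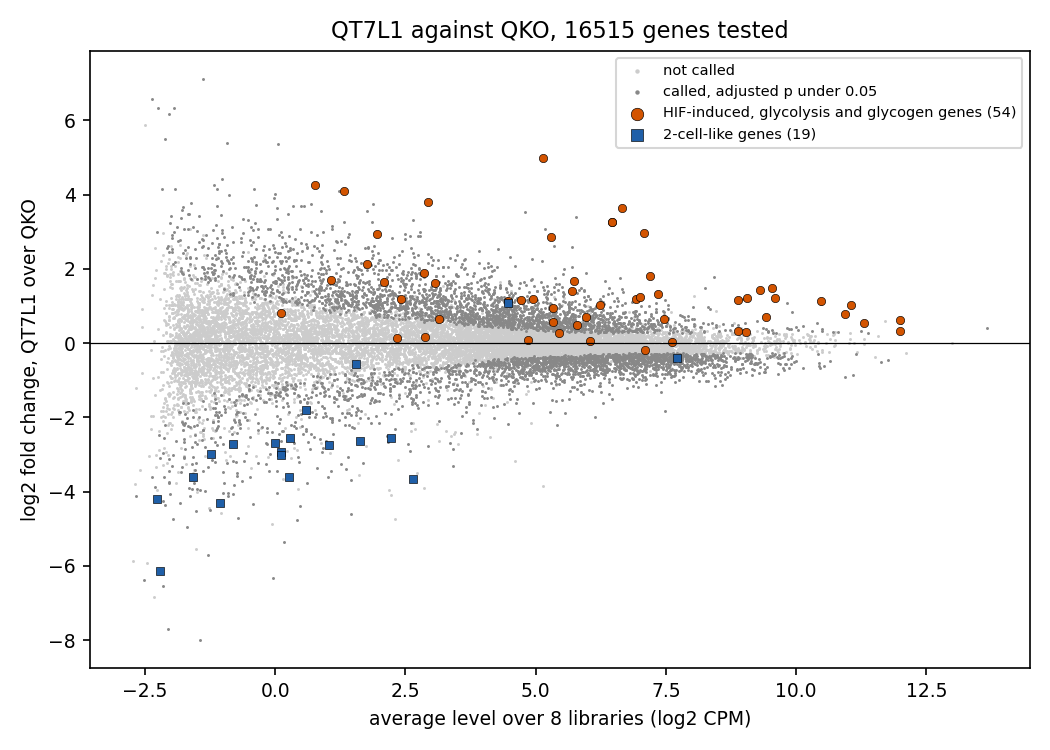
Each point is 1 of 16515 genes, with its average log2 CPM on the x axis and its log2 difference, QT7L1 over QKO, on the y axis. Orange circles mark genes of the oxygen, glycolysis and glycogen lists, most of them above 0, and blue squares mark the 19 tested genes of the 2-cell-like list, most of them far below 0.

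The genes were grouped into 34 lists by pathway, cell state or cell type, and in each list the members called were counted against the shares over all genes. Lists of HIF-induced, glycolysis, p53 and glycogen genes had the largest shares of members called higher. The 2-cell-like list, genes of a rare ES cell state that resembles the early embryo, held the most falls. The list of respiratory chain subunits, in contrast, had lower shares called in either direction than all genes.

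**Figure D2:**
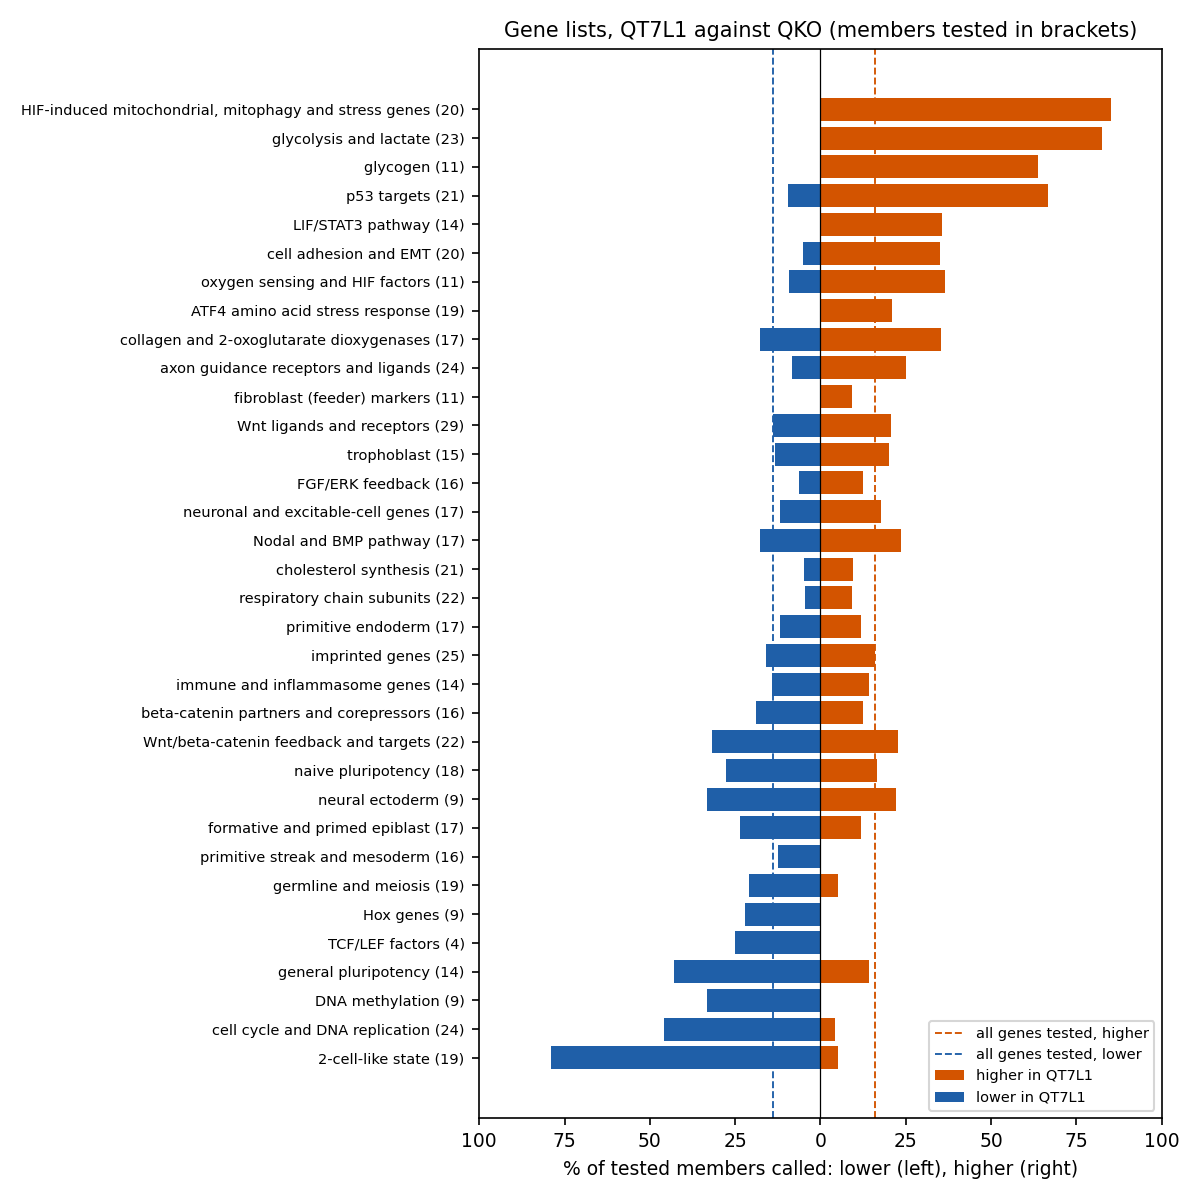
Bars give the percentage of each list's tested members that were called higher (right) or lower (left) in QT7L1 than in QKO, and dashed lines give the same percentages over all genes, 15.9 and 13.9. The HIF-induced, glycolysis, p53 and glycogen lists extend furthest to the right and the 2-cell-like list furthest to the left.

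Cells read oxygen through prolyl hydroxylases of the EGLN family. In oxygen these mark the alpha subunits of hypoxia-inducible factor (HIF) for destruction by the VHL ligase, and in low oxygen HIF alpha pairs with ARNT and raises genes that limit mitochondrial work and increase glycolysis. EGLN3 and EGLN1 are themselves HIF targets. HIF binds the core letters ACGTG or GCGTG, which many other factors also bind or overlap. CTTTGAT is the corresponding core for TCF/LEF factors. Both were searched on both strands in the 250 bases before the starts of genes in RefSeq (build GRCm38.p6).

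Of 52 promoters of HIF-induced and glycolysis genes (36 of 43 genes had an entry), 41 held ACGTG or GCGTG, which is 78.8%, against 54.3% of 14696 promoters of tested genes and 38.6% of all 32851 promoters. CTTTGAT was in 1 of these 52 (1.92%), against 2.25% of promoters of tested genes. The 3 promoters shown belong to genes that rose: the lactate exporter Slc16a3 (chr11:120948817-120949066, plus strand), the glycolytic regulator Pfkfb3 (chr2:11502091-11502340, minus strand) and the glycolytic enzyme Pgk1 (chrX:106186850-106187099, plus strand). Each is read 5' to 3' on the strand of the gene, capitals mark ACGTG or GCGTG or their reverse complements, and in CACGTG both readings overlap.
Slc16a3: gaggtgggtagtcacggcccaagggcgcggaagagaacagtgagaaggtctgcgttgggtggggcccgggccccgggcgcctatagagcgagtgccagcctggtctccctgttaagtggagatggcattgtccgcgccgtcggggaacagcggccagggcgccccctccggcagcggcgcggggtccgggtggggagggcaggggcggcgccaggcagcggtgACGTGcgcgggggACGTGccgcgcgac
Pfkfb3: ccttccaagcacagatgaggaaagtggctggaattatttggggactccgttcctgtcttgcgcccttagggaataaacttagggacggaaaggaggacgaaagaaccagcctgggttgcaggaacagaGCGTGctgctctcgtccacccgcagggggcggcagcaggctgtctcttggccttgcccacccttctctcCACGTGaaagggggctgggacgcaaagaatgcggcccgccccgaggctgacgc
Pgk1: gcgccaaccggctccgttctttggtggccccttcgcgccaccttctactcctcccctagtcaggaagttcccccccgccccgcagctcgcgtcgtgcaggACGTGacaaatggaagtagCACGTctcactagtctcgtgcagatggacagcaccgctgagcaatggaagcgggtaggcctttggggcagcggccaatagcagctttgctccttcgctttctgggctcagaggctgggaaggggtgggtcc
A match of letters is a description of the window and not evidence of binding.

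In the HIF-induced list, 17 of 20 tested genes rose and none fell, beside 15.9% of all genes called higher and 13.9% called lower. The median log2 difference was 1.64 against 0.02 over all genes tested. The QT7L1 and QKO libraries did not overlap for 19 of the 20, against 71.0% of all genes. In 18 of the 20 both QKO libraries lay below the other 6 libraries, and the share of all genes in that order was not computed. Among genes with a mean log2 CPM of 2 or more, the largest rise was that of Ndufa4l2 (chr10:127514967-127517154, plus strand), a mitochondrial protein that restrains respiratory complex I under low oxygen. It was at 1.71 and 1.77 CPM in QKO and at 45.1 and 66.3 CPM in QT7L1, 31.9-fold higher (log2 5.0 ± 0.46, adjusted p = 0.00108). WT read 30.9 and 43.4 CPM and QT7 29.3 and 62.1 CPM, so QKO stood apart from all 3 other groups.

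Mitophagy receptors rose too. Bnip3, an outer-membrane protein that tags mitochondria for removal, was at 13.9 and 9.67 CPM in QKO and 118 and 172 CPM in QT7L1 (log2 3.63 ± 0.39, adjusted p = 0.00183). Its relative Bnip3l was at 133 and 136 CPM against 192 and 234 CPM (log2 0.66 ± 0.12, adjusted p = 0.00368). The QT7L1 libraries lay above the QKO libraries for both receptors, and the Bnip3 difference was the wider. Ddit4, an inhibitor of the growth kinase mTORC1, went from 30.3 and 23.2 CPM to 192 and 223 CPM (log2 2.96 ± 0.35). The circadian repressors Bhlhe40 and Bhlhe41 are also HIF targets. Bhlhe40 was at 13.2 and 14.7 CPM in QKO and 152 and 117 CPM in QT7L1 (log2 3.26 ± 0.23, adjusted p = 0.000525). Bhlhe41 was at 0.217 and 0.0832 CPM against 3.60 and 2.19 CPM, and its fitted fold rests on few counts in QKO.

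Further members cover acid balance, protein folding and respiration. Car12, a membrane carbonic anhydrase, was at 0.465 and 0.610 CPM in QKO and 3.57 and 4.69 CPM in QT7L1 (log2 2.93 ± 0.32, adjusted p = 0.000731). Car9, the carbonic anhydrase most often used as a marker of hypoxia, was at 0.714 and 0.776 CPM against 1.61 and 1.00 CPM and did not pass (adjusted p = 0.141). The other members that did not pass were Pdk1 and Pdk3, kinases that inhibit pyruvate dehydrogenase. Pdk1 had the smallest log2 difference of the list, 0.02, and Pdk3 read 38.9 and 41.2 CPM against 44.5 and 52.5 CPM. Cox4i2, the low-oxygen isoform of a cytochrome oxidase subunit, rose by a log2 difference of 2.14 ± 0.41, while its usual isoform Cox4i1 read 578 and 538 CPM against 637 and 585 CPM (adjusted p = 0.421). Ndufa4, the usual relative of Ndufa4l2, read 183 and 168 CPM against 198 and 183 CPM (adjusted p = 0.37). Ero1l, an oxidase for protein folding, Ndrg1, a stress-induced growth suppressor, Ankrd37, Mxi1, an antagonist of MYC, and the nuclear receptor Rora rose with log2 differences of 0.95 to 1.66.

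The sensing machinery itself was split, and its counts are to be read beside 15.9% of all genes called higher and 13.9% called lower. Egln3 was at 8.50 and 7.15 CPM in QKO and 73.9 and 92.2 CPM in QT7L1 (log2 3.41 ± 0.36, adjusted p = 0.00132), and Egln1 at 24.2 and 21.6 CPM against 78.2 and 91.8 CPM (log2 1.89 ± 0.18, adjusted p = 0.000653). Egln2, the hydroxylase that HIF does not induce, read 59.9 and 57.1 CPM against 54.4 and 54.3 CPM (adjusted p = 0.473). Vhl read 23.3 and 24.8 CPM against 24.1 and 25.8 CPM, and Hif1a 147 and 163 CPM against 106 and 123 CPM, neither past the threshold (adjusted p = 0.789 and 0.0955). Arnt and Hif3a were also called higher, but lost their calls without 1 library in 4 and 3 of the 4 omissions (adjusted p up to 0.131 and 0.0796). In all, 4 of 11 oxygen sensing and HIF genes rose (2, 3, 2 and 2 without QKO 1, QKO 2, QT7L1 1 and QT7L1 2) and 1, Epas1, fell. Epas1 read 97.2 and 161 CPM against 80.8 and 81.8 CPM, and its call was lost in 3 of the omissions, with adjusted p = 0.187 without QKO 2, 0.128 without QT7L1 1 and 0.125 without QT7L1 2, and in the fit of only these groups (0.0939).

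**Figure D3:**
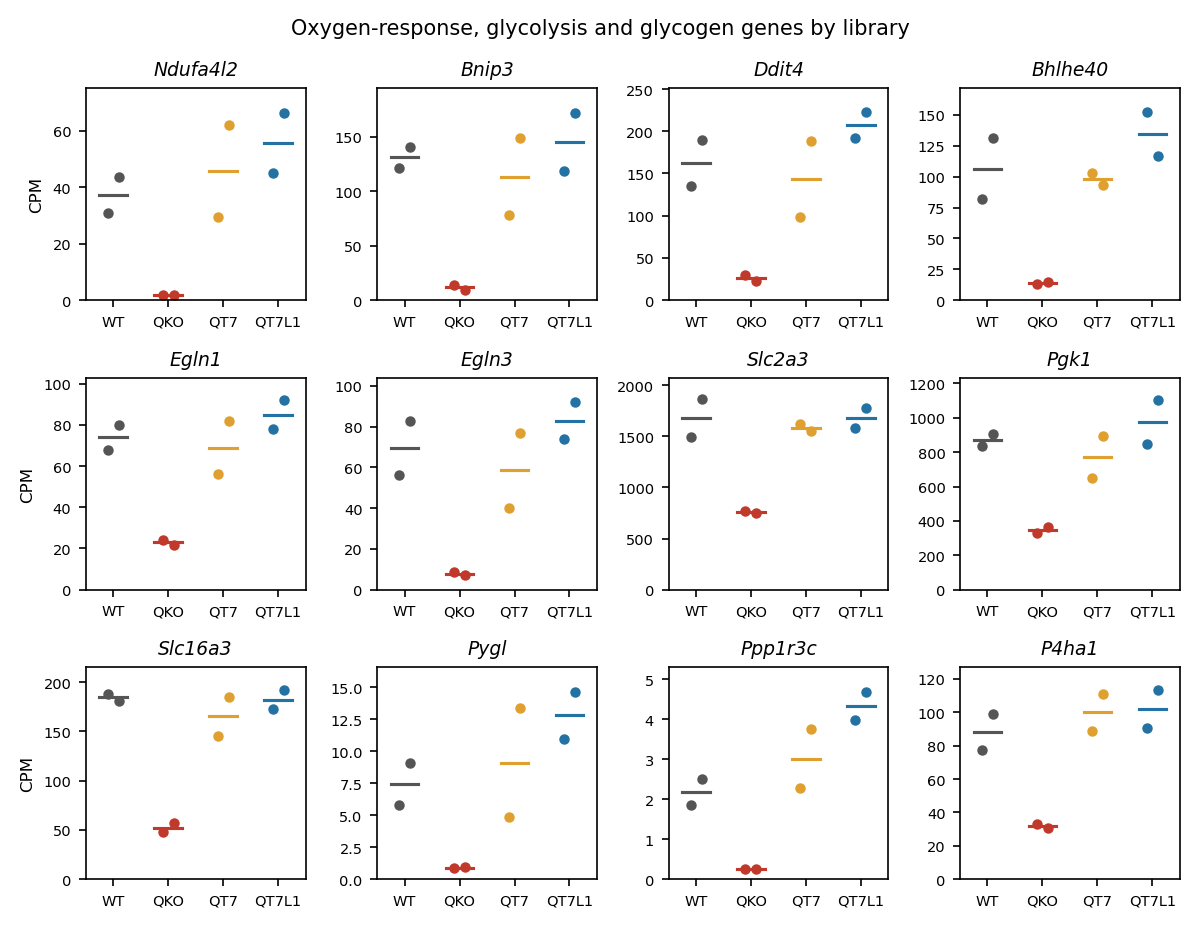
Points are CPM of 12 oxygen response, glycolysis and glycogen genes in each of the 8 libraries, by group, and lines are group means of 2 libraries. In the panels QKO points sit lowest, with Ndufa4l2 at 1.71 and 1.77 CPM in QKO and 45.1 and 66.3 CPM in QT7L1.

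Glycolysis rose along most of its length. Of 23 tested genes 19 rose and none fell, beside 15.9% of all genes called higher and 13.9% called lower. The median log2 difference was 1.14. The QT7L1 and QKO libraries did not overlap for 22, against 71.0% of all genes. In 16 both QKO libraries lay below the other 6, again with no share over all genes computed. At glucose entry, the transporter Slc2a3 was at 766 and 753 CPM in QKO and 1582 and 1773 CPM in QT7L1 (log2 1.14 ± 0.11, adjusted p = 0.000653), and Slc2a1 at 366 and 444 CPM against 797 and 1069 CPM (log2 1.20 ± 0.21). Phosphofructokinase commits sugar to the pathway. Its liver-type subunit Pfkl was at 265 and 297 CPM against 601 and 697 CPM (log2 1.21 ± 0.16, adjusted p = 0.00141), whereas the muscle-type subunit Pfkm, at 44.9 and 50.9 CPM against 68.7 and 64.9 CPM, did not pass (adjusted p = 0.177). Pfkfb3, which makes the allosteric activator of phosphofructokinase, was at 15.1 and 17.9 CPM against 39.6 and 35.9 CPM (log2 1.19 ± 0.13). Its relative Pfkfb4 read 4.78 and 4.82 CPM against 5.27 and 5.27 CPM (adjusted p = 0.649).

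Lower in the pathway the rises differed in size. Aldoc, the aldolase of brain, was at 6.80 and 9.79 CPM in QKO and 57.8 and 62.9 CPM in QT7L1 (log2 2.86 ± 0.40), and Aldoa, the aldolase of muscle, at 1289 and 1377 CPM against 2613 and 2830 CPM (log2 1.03 ± 0.16). Tpi1, which interconverts the products of aldolase, went from 266 and 324 CPM to 744 and 852 CPM (log2 1.44 ± 0.22). Pgk1, the first enzyme of the pathway to yield ATP, went from 332 and 364 CPM to 850 and 1105 CPM (log2 1.49 ± 0.17, adjusted p = 0.000911). For these enzymes the groups did not overlap. Pgam1, between Pgk1 and enolase, read 405 and 417 CPM against 482 and 556 CPM and did not pass (adjusted p = 0.0801). Eno2, the neuronal enolase, rose by a log2 difference of 1.88 ± 0.28. Ldha, which turns pyruvate into lactate, was at 1300 and 1449 CPM against 2154 and 2608 CPM (log2 0.79 ± 0.17, adjusted p = 0.00822), a call lost without QKO 1 (adjusted p = 0.0526) and without QT7L1 2 (0.0674). Slc16a3, which exports lactate, was at 47.8 and 56.8 CPM in QKO and 173 and 192 CPM in QT7L1 (log2 1.8 ± 0.14, adjusted p = 0.000525). Leaving out QKO 1, QKO 2, QT7L1 1 and QT7L1 2 in turn left 13, 12, 15 and 11 glycolysis genes called higher, and none lower.

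Of 11 tested glycogen genes, 7 rose and none fell, beside 15.9% of all genes called higher and 13.9% called lower. The median log2 difference was 1.14. Pygl, the liver glycogen phosphorylase, was at 0.90 and 0.915 CPM in QKO and 10.9 and 14.6 CPM in QT7L1, 14.0-fold higher (log2 3.81 ± 0.51, adjusted p = 0.00172). Pygb, the brain phosphorylase, was at 10.6 and 13.9 CPM against 29.4 and 24.6 CPM (log2 1.14 ± 0.18, adjusted p = 0.00207). Pgm1, which links glucose-1-phosphate to glycolysis, was at 14.8 and 12.2 CPM against 90.6 and 170 CPM (log2 3.27 ± 0.46, adjusted p = 0.00541), with an adjusted p of 0.051 without QKO 2. The scaffold Ppp1r3c, which brings a phosphatase to glycogen and favours its synthesis, was at 0.248 and 0.249 CPM against 3.97 and 4.69 CPM (log2 4.10 ± 0.39, adjusted p = 0.000652). A scaffold of the same family outside the list, Ppp1r3b, was at 1.12 and 1.19 CPM against 9.45 and 8.92 CPM (log2 2.99 ± 0.36). The muscle phosphorylase Pygm rose from 3.13 and 3.74 CPM to 7.90 and 7.89 CPM (log2 1.20 ± 0.28, adjusted p = 0.0109), a call lost without any of the 4 libraries (adjusted p from 0.0523 to 0.0706). The members that did not pass take part in building glycogen. The synthase Gys1 had a log2 difference of 0.06 (adjusted p = 0.827). Ugp2 read 27.4 and 25.6 CPM against 28.2 and 28.2 CPM, Gyg 5.46 and 5.99 CPM against 6.09 and 6.79 CPM, and the branching enzyme Gbe1 5.71 and 5.57 CPM against 7.93 and 9.74 CPM (adjusted p = 0.684, 0.615 and 0.0614). The count of glycogen genes called higher was 6, 4, 5 and 5 without QKO 1, QKO 2, QT7L1 1 and QT7L1 2.

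Prolyl 4-hydroxylases of collagen use oxygen and 2-oxoglutarate as EGLN enzymes do. P4ha1 was at 33.2 and 30.4 CPM in QKO and 90.3 and 114 CPM in QT7L1 (log2 1.68 ± 0.17, adjusted p = 0.000653), and P4ha2 at 16.7 and 13.1 CPM against 38.7 and 46.6 CPM (log2 1.52 ± 0.25). The collagen crosslinker Loxl2 went from 10.8 and 7.21 CPM to 43.2 and 66.8 CPM (log2 2.61 ± 0.27, adjusted p = 0.000868). The histone demethylase Kdm4b, of the same enzyme class, went from 33.5 and 29.4 CPM to 65.0 and 65.5 CPM (log2 1.05 ± 0.12). Kdm3a, another histone demethylase, and Tet2 were among the members called lower. The Kdm3a call was lost when any QKO or QT7L1 library was left out. Its log2 difference was -0.83 without QKO 1, -0.91 without QKO 2, -0.93 without QT7L1 1 and -0.82 without QT7L1 2. The Tet2 call was lost without TMM scaling (log2 -0.25) and without WT 1, WT 2, QKO 1, QT7L1 1 or QT7L1 2. Its log2 difference was -0.18 without QKO 1 and -0.33 without QT7L1 2. Among all genes 15.9% were called higher and 13.9% lower. The list as a whole was mixed, with 6 of 17 higher and 3 lower, a median log2 difference of 0.10, and 0 to 2 lower when any of the 8 libraries was left out.

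Most respiratory chain subunits did not pass the test. Of 22 tested, 2 rose, 1 fell and 19 did not pass, beside 15.9% of all genes called higher and 13.9% called lower. Their median log2 difference was 0.08. The gene that fell was Cycs, cytochrome c, at 148 and 141 CPM in QKO and 93.5 and 80.7 CPM in QT7L1 (log2 -0.73 ± 0.11, adjusted p = 0.00196). Transcripts of the mitochondrial genome were between 0.4352% and 1.575% of counts over the 8 libraries.

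p53 responds to stress by raising genes of cell cycle arrest and cell death. Of 21 tested genes of its list, 14 rose and 2 fell, beside 15.9% of all genes called higher and 13.9% called lower. The median log2 difference was 0.65, and that of QT7 over QKO was 0.71. Ccng2, an unusual cyclin linked to arrest that other stress pathways also raise, was at 4.53 and 3.41 CPM in QKO and 46.6 and 44.5 CPM in QT7L1, 11.5-fold higher (log2 3.52 ± 0.22, adjusted p = 0.000346). Cdkn1a, the p21 inhibitor of cyclin-dependent kinases, was at 39.2 and 26.5 CPM against 81.6 and 75.2 CPM (log2 1.26 ± 0.23, adjusted p = 0.00618). The inducers of cell death Pmaip1 and Bbc3 rose in parallel. Pmaip1 was at 14.3 and 14.3 CPM against 38.9 and 50.2 CPM (log2 1.64 ± 0.19), and Bbc3 at 22.7 and 15.4 CPM against 54.0 and 60.4 CPM (log2 1.59 ± 0.26). Bax, another death effector, read 193 and 185 CPM against 174 and 150 CPM and did not pass (adjusted p = 0.109). Trp53inp1, Phlda3, Zmat3 and Gdf15 rose with log2 differences of 0.65 to 1.49. The genes of the list that fell were Tigar, which slows glycolysis, at 132 and 123 CPM against 82.3 and 74.1 CPM (log2 -0.71 ± 0.10), and Trp53 itself. Trp53 was at 627 and 587 CPM against 483 and 443 CPM, and its call was lost without QKO 1, QKO 2 or QT7L1 2 (adjusted p = 0.0865, 0.0504 and 0.107). Without QKO 1, QKO 2, QT7L1 1 and QT7L1 2 the list had 13, 8, 10 and 10 genes called higher.

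Of 24 tested cell cycle and replication genes, 11 fell and 1 rose, beside 13.9% of all genes called lower and 15.9% called higher. The median log2 difference was -0.24, and that of QT7 over QKO was -0.38. The gene that rose was E2f1, a factor that drives entry into S phase, at 37.7 and 45.1 CPM in QKO and 62.8 and 59.8 CPM in QT7L1 (log2 0.57 ± 0.15, adjusted p = 0.017). Its call was lost without QKO 1, QT7L1 1 or QT7L1 2 (adjusted p = 0.111, 0.0842 and 0.0698). Ccnd2, cyclin D2, fell from 37.2 and 27.8 CPM in QKO to 9.81 and 6.21 CPM in QT7L1 (log2 -2.02 ± 0.22, adjusted p = 0.000802). Ccnd1, cyclin D1, fell from 281 and 327 CPM to 162 and 165 CPM (log2 -0.90 ± 0.13, adjusted p = 0.00168). Ccnd3, cyclin D3, read 490 and 518 CPM against 498 and 449 CPM (adjusted p = 0.536), so the D cyclins did not move as a set. Myc, a driver of growth and of ribosome production, fell from 186 and 226 CPM to 81.6 and 99.4 CPM (log2 -1.19 ± 0.21, adjusted p = 0.00467). The mitotic markers Ccna2 and Mki67 did not pass, at 312 and 312 CPM against 289 and 300 CPM and at 228 and 244 CPM against 295 and 273 CPM (adjusted p = 0.486 and 0.104). Leaving out QKO 1, QKO 2, QT7L1 1 and QT7L1 2 left 7, 3, 4 and 4 genes called lower.

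**Figure D4:**
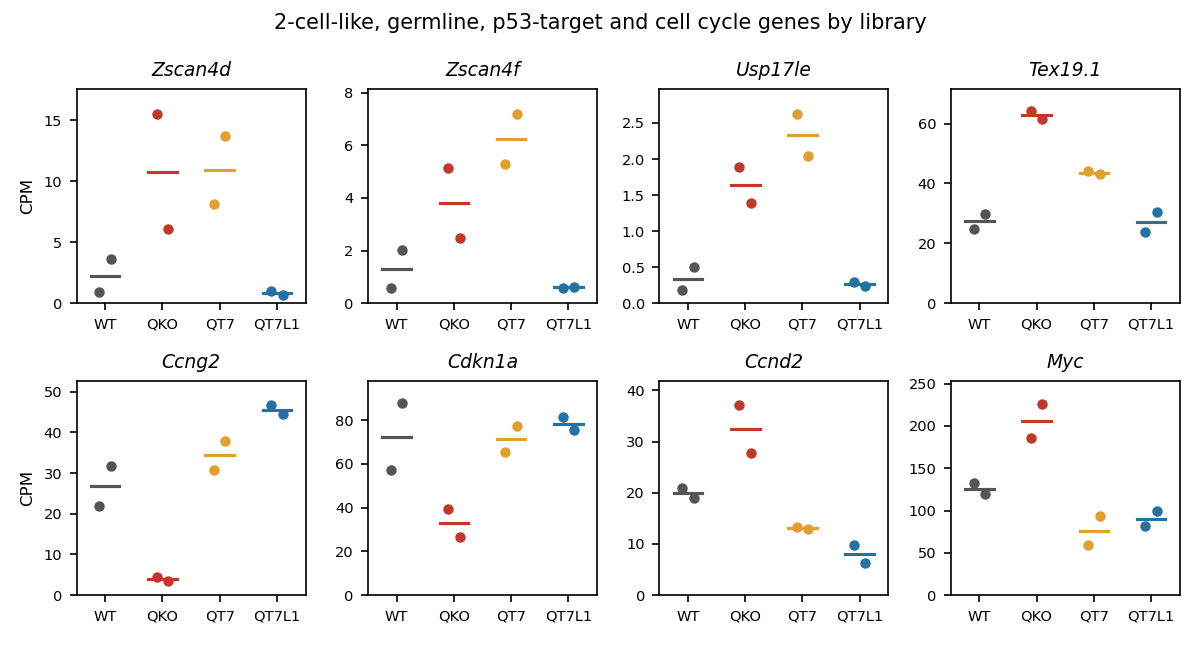
Points are CPM of 8 genes of the 2-cell-like, germline (Tex19.1), arrest and growth lists in each library, by group. Lines are group means of 2 libraries. Ccng2 and Cdkn1a are lowest in QKO, Ccnd2 and Myc are highest in QKO, and the Zscan4 and Usp17l genes are lower in QT7L1 than in QKO and QT7.

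Wnt target genes moved in both directions. Of 22 tested, 5 rose, 7 fell and 10 did not pass, with a median log2 difference of -0.39. Over all genes 15.9% were called higher and 13.9% lower. Axin2 (chr11:108920349-108950783, plus strand), a scaffold that destroys beta-catenin and the most used read-out of the pathway, was at 45.6 and 60.3 CPM in QKO and 31.9 and 32.0 CPM in QT7L1 (log2 -0.73 ± 0.24, adjusted p = 0.0482). WT read 21.9 and 20.7 CPM and QT7 19.11 and 33.9 CPM. The Axin2 call was lost without any of the QKO, QT7L1 or WT libraries, with adjusted p from 0.0554 to 0.262 (0.262 without QKO 2), without TMM scaling (0.0644), and under the crossed replicate block (0.0706). Sp5, a transcription factor that dampens Wnt output, fell from 2.17 and 3.49 CPM to 0.636 and 0.670 CPM (log2 -2.11 ± 0.41, adjusted p = 0.00509), with WT at 4.60 and 2.4 CPM. For Sp5 the QT7L1 libraries were the lowest of the 8.

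The Sp5 promoter (chr2:70474673-70474922, plus strand) is shown because it is 1 of the 2 among 18 promoters of this list (13 of 22 genes had an entry) that held CTTTGAT or its reverse complement ATCAAAG. The share is 11.1%, against 3.21% of all promoters and 2.25% of those of tested genes. Capitals mark the match.
Sp5: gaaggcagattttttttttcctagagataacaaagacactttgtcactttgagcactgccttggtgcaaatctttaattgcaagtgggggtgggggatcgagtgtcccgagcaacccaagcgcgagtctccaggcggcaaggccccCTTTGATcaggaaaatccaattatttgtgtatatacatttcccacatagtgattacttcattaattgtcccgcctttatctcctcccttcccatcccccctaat
ACGTG or GCGTG was in 10 of the 18 (55.6%), close to the 54.3% of promoters of tested genes.

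Other feedback genes of the pathway were split. Notum, a secreted enzyme that inactivates Wnt ligands, fell from 21.8 and 22.5 CPM to 11.4 and 14.2 CPM (log2 -0.79 ± 0.18, adjusted p = 0.0098), a call lost without QKO 2 (0.0654) and without QT7L1 1 (0.0835). Nkd2, which binds Dishevelled and blunts the Wnt signal, rose from 0.962 and 1.16 CPM to 3.57 and 4.11 CPM (log2 1.85 ± 0.31, adjusted p = 0.0025). The receptor Fzd7 rose from 53.4 and 54.4 CPM to 90.7 and 87.0 CPM (log2 0.72 ± 0.09, adjusted p = 0.00109). Znrf3, a ligase that removes Frizzled receptors from the membrane, read 21.3 and 19.5 CPM against 18.3 and 14.9 CPM (adjusted p = 0.171). Beta-catenin itself, Ctnnb1, read 827 and 808 CPM against 905 and 952 CPM (adjusted p = 0.129). Without QKO 1, QKO 2, QT7L1 1 and QT7L1 2, 4, 2, 5 and 3 Wnt targets were called higher and 5, 3, 3 and 4 lower.

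Of 29 tested ligands and receptors, 6 rose and 4 fell, and of 16 partners and corepressors of beta-catenin, 2 rose and 3 fell. These counts are near the shares over all genes. Without QKO 1, QKO 2, QT7L1 1 and QT7L1 2 the ligands and receptors called higher were 3, 1, 1 and 1 and those called lower 1, 2, 2 and 1. Of the partners and corepressors, none was called higher without QKO 2 or QT7L1 2, and 1 was called lower without QT7L1 2. Wnt5b, a ligand that usually signals without beta-catenin, fell from 4.34 and 5.32 CPM to 1.36 and 1.52 CPM (log2 -1.74 ± 0.27, adjusted p = 0.00184). It was at 1.28 and 0.998 CPM in WT and at 4.49 and 4.09 CPM in QT7, so QT7L1 lay near WT, and QT7 near QKO; against QT7 the log2 difference was -1.57 ± 0.27 (adjusted p = 0.111). The coreceptor Lrp5 rose from 72.7 and 68.6 CPM to 127 and 121 CPM (log2 0.81 ± 0.16), with an adjusted p of 0.051 without QKO 2. The corepressor Tle4 fell from 121 and 123 CPM to 84.5 and 80.5 CPM (log2 -0.56 ± 0.12), with an adjusted p of 0.0542 without QT7L1 2.

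**Figure D5:**
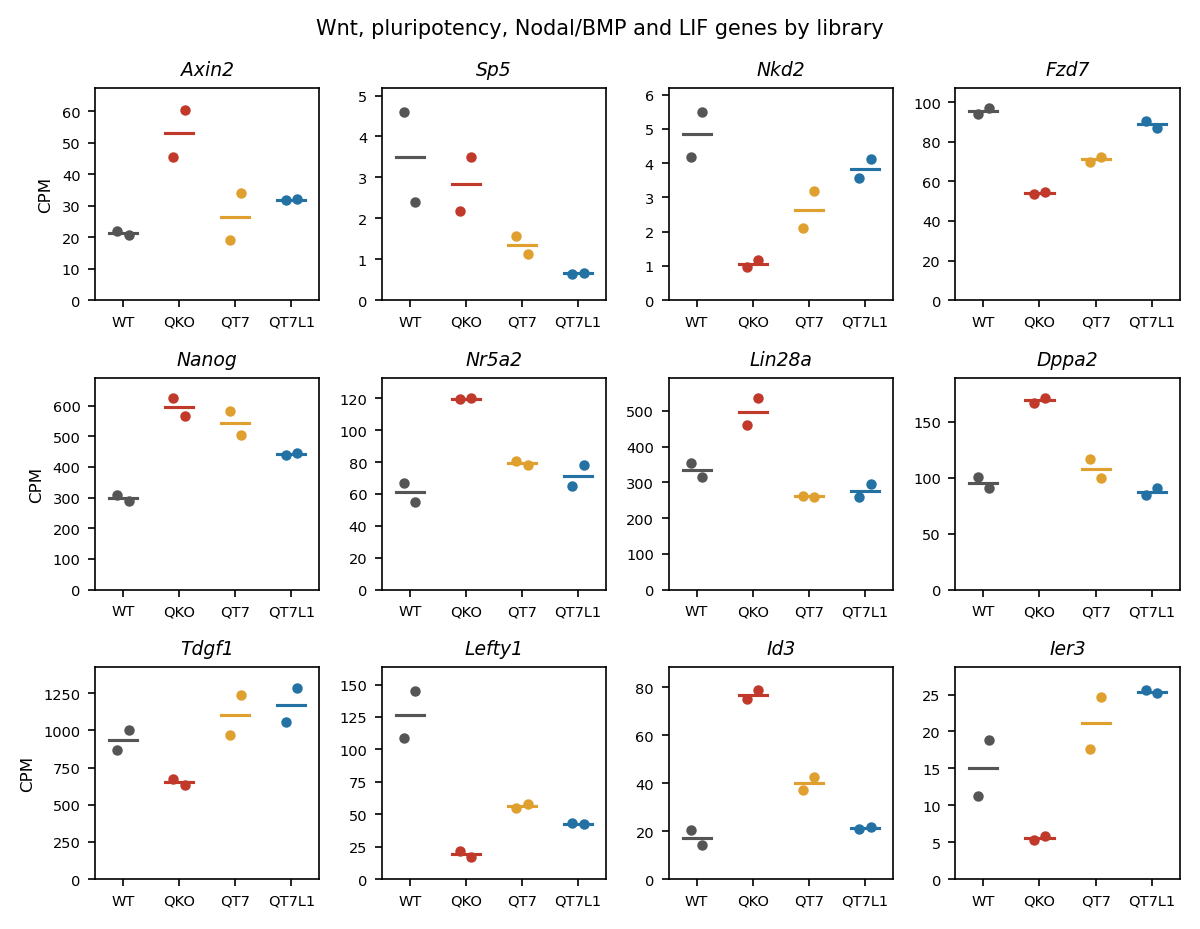
Points are CPM of 12 genes of Wnt, pluripotency, Nodal, BMP and LIF signalling in each library, by group, and lines are group means of 2 libraries. Id3 is highest in QKO at 75.0 and 78.8 CPM, and Lefty1 is lowest there at 21.6 and 17.2 CPM.

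Pluripotency genes shifted by small steps. Nanog, the factor most closely tied to TCF7L1, was at 624 and 566 CPM in QKO and 441 and 445 CPM in QT7L1 (log2 -0.43 ± 0.10, adjusted p = 0.0114). WT, at 308 and 288 CPM, lay below QT7L1, and QT7 read 583 and 504 CPM. The Nanog call was lost without QKO 1, QT7L1 1 or QT7L1 2 (adjusted p = 0.0843, 0.0722 and 0.0681). Pou5f1, at 2042 and 1737 CPM against 1656 and 1559 CPM, and Sox2, at 263 and 241 CPM against 292 and 300 CPM, did not pass (adjusted p = 0.16 and 0.071). These are the core factors of the pluripotent state.

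Around the core, Dppa2, which primes genes of the early embryo, fell from 167 and 171 CPM to 84.4 and 90.9 CPM (log2 -0.95 ± 0.11, adjusted p = 0.000802). Lin28a, an RNA-binding protein that blocks let-7 maturation, fell from 460 and 536 CPM to 259 and 295 CPM (log2 -0.85 ± 0.11, adjusted p = 0.0011). The zinc finger factors Zfp281 and Sall4 fell with log2 differences of -0.85 ± 0.14 and -0.76 ± 0.11. In the naive set, the nuclear receptor Nr5a2 fell from 120 and 120 CPM to 64.7 and 78.3 CPM (log2 -0.74 ± 0.13, adjusted p = 0.00263), and Tcl1, a coactivator of AKT, rose from 98.6 and 87.5 CPM to 156 and 150 CPM (log2 0.72 ± 0.12). Klf5 read 277 and 277 CPM against 205 and 249 CPM (adjusted p = 0.096). In all, 3 of 18 naive genes rose and 5 fell, and 2 of 14 general pluripotency genes rose and 6 fell. These counts stand beside 15.9% of all genes called higher and 13.9% called lower. Without QKO 1, QKO 2, QT7L1 1 and QT7L1 2, the naive genes called lower were 1, 3, 1 and 3 and the general ones 5, 5, 4 and 5. No member of either list changed 2-fold past the test.

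Signals that hold ES cells also moved gene by gene. Of 14 LIF/STAT3 genes 5 rose and none fell, beside 15.9% of all genes called higher and 13.9% called lower. Ier3, an early response gene, rose from 5.37 and 5.90 CPM to 25.6 and 25.2 CPM (log2 2.17 ± 0.26, adjusted p = 0.000968), and the kinase Jak1 from 56.7 and 60.4 CPM to 82.2 and 84.7 CPM (log2 0.51 ± 0.11). Stat3 read 155 and 170 CPM against 146 and 128 CPM (adjusted p = 0.251). Without QKO 1, QKO 2 and QT7L1 2, 2, 3 and 2 of these genes were called higher.

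In the Nodal and BMP list, 4 of 17 rose and 3 fell, not far from the shares over all genes, 15.9% higher and 13.9% lower. Nodal uses the coreceptor Tdgf1 and raises its own inhibitor Lefty1. Tdgf1 rose from 672 and 631 CPM to 1058 and 1289 CPM (log2 0.85 ± 0.14, adjusted p = 0.00263), and Lefty1 from 21.6 and 17.2 CPM to 43.0 and 42.2 CPM (log2 1.13 ± 0.16, adjusted p = 0.00125). Lefty1 was at 108 and 145 CPM in WT, above both groups. Lefty2 read 87.4 and 66.7 CPM against 123 and 84.1 CPM (adjusted p = 0.3). Id3, a BMP target that blocks differentiation factors, fell from 75.0 and 78.8 CPM to 20.9 and 21.8 CPM (log2 -1.85 ± 0.16, adjusted p = 0.000525). Of the ligands, Bmp7 rose from 1.52 and 1.33 CPM to 10.3 and 10.7 CPM (log2 2.88 ± 0.34, adjusted p = 0.000868). Without QKO 1, QKO 2, QT7L1 1 and QT7L1 2, the genes of this list called higher were 3, 2, 4 and 2 and those called lower 3, 2, 2 and 1. Of 16 FGF feedback genes 2 rose, 1 fell and 13 did not pass, to be set beside the same shares. The falls numbered 5 without QT7 1 or without QT7 2, and 0 without WT 1, WT 2, QKO 2 or QT7L1 2. Spry1, an inhibitor of FGF signalling, was among those that rose, from 15.6 and 17.8 CPM to 28.2 and 26.7 CPM (log2 0.72 ± 0.15, adjusted p = 0.00583).

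The 2-cell-like list had the lowest median of the 34 lists. Of 19 tested genes 15 fell and 1 rose, with a median log2 difference of -2.73, beside 13.9% of all genes called lower and 15.9% higher. The filter used all 8 libraries, so a gene near 0 in QT7L1 could be tested through groups where it was high. Counts and orders given for this list therefore describe it and are not a test. With a CPM of at least 1 required in at least 2 libraries, 14 were tested, of which 10 fell and 1 rose (median -2.66). Spz1, a factor of the germline on this list, had no count in either QT7L1 library. With it set at 3 counts per library, the median of the 19 was -2.72. The libraries of these groups did not overlap for any of the 19, against 71.0% of all genes, and in 18 both QT7L1 libraries lay below both QKO libraries. Zscan4d (chr7:11161374-11166159, minus strand), of a zinc finger family that marks this state, was at 15.5 and 6.07 CPM in QKO and 1.03 and 0.670 CPM in QT7L1 (log2 -3.66 ± 0.76, adjusted p = 0.0131). Usp17le, a deubiquitinase of a repeated family, was at 1.89 and 1.39 CPM against 0.303 and 0.244 CPM (log2 -2.57 ± 0.47, adjusted p = 0.00372). Zscan4c read 8.10 and 4.19 CPM against 1.12 and 0.974 CPM and did not pass (adjusted p = 0.0581). Members of the Zscan4 and Usp17l families are near-identical copies, so the share of reads that each received is uncertain and they are not separate observations.

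QKO 1 was above QKO 2 for 17 of the 19 genes. In bulk RNA, fewer cells in this state and less of its RNA per cell cannot be told apart. The number called lower was 5, 13, 3 and 2 without QKO 1, QKO 2, QT7L1 1 and QT7L1 2. Zscan4d lost its call without QT7L1 1 (adjusted p = 0.0647) and without QT7L1 2 (0.0898). In QT7, Zscan4d was at 8.14 and 13.7 CPM and Usp17le at 2.63 and 2.05 CPM, in or above the QKO range. For 18 of the 19 genes both QT7L1 libraries lay below both QT7 libraries, an order whose share over all genes was not computed. No single gene of the list was called between QT7L1 and QT7 (adjusted p = 0.197 for Zscan4d). In WT, Zscan4d was at 0.939 and 3.63 CPM.

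Germline genes gave 1 rise and 4 falls among 19 tested, beside 15.9% of all genes called higher and 13.9% called lower. Tex19.1, a germline protein that restrains retrotransposons, fell from 64.2 and 61.7 CPM to 23.8 and 30.5 CPM (log2 -1.21 ± 0.14, adjusted p = 0.000868). Zp3, an egg coat protein, fell from 10.3 and 11.4 CPM to 2.79 and 1.55 CPM (log2 -2.32 ± 0.28, adjusted p = 0.000911). Sycp3, of the meiotic chromosome axis, was the 1 gene that rose, from 6.33 and 5.49 CPM to 13.0 and 23.1 CPM (log2 1.61 ± 0.25, adjusted p = 0.00198). The falls numbered 2 without any of the 4 libraries, and 8 without QT7 1 or without QT7 2.

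Counts of lineage markers called were small and are to be read against the 15.9% of all genes called higher and 13.9% called lower. Of 16 primitive streak genes 2 fell, of 17 primitive endoderm genes 2 rose and 2 fell, and of 15 trophoblast genes 3 rose and 2 fell. These small counts were not stable: no streak gene was called without QKO 2 or either QT7L1 library, and no trophoblast gene rose without QKO 2. Of 9 neural genes 2 rose and 3 fell, with 1 fall left without QKO 2 and none without QT7L1 1 or QT7L1 2. Msi1, an RNA-binding protein of neural progenitors, was at 11.7 and 10.9 CPM in QKO and 35.1 and 34.7 CPM in QT7L1 (log2 1.62 ± 0.18, adjusted p = 0.000802). Pou4f2 was among the falls, from 23.7 and 38.0 CPM to 7.75 and 6.06 CPM (log2 -2.16 ± 0.44, adjusted p = 0.0101). Nes fell from 25.8 and 47.2 CPM to 15.5 and 10.1 CPM (log2 -1.51 ± 0.42, adjusted p = 0.0341). Its call was lost with a replicate block (adjusted p = 0.0753), and without QKO 2, QT7 1, QT7 2, QT7L1 1 or QT7L1 2. The Nes log2 difference was -1.01 without QKO 2, -1.84 without QT7L1 1 and -1.23 without QT7L1 2. Of 11 fibroblast genes tested 1 rose and none fell, and their median log2 difference was -1.18. Col1a1, the main fibroblast collagen, read 51.0 CPM in QKO 1, 5.82 CPM in QKO 2, and 3.03 and 6.85 CPM in QT7L1 (adjusted p = 0.237), with 38.6 and 18.2 CPM in WT and 2.58 and 13.2 CPM in QT7. The median of the list was -0.23 without QKO 1 and -1.91 without QKO 2. Of 25 imprinted genes 4 rose and 4 fell, among them Mest, which fell from 149 and 150 CPM to 99.6 and 106 CPM (log2 -0.55 ± 0.09, adjusted p = 0.00246). No imprinted gene was called higher without QKO 1 or QKO 2, and between 1 and 9 were called lower over the 8 omissions.

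Genes of cell adhesion and of the epithelial to mesenchymal transition had 7 rises and 1 fall among 20 tested. This count, and those of the axon guidance and neuronal lists, stand beside 15.9% of all genes called higher and 13.9% called lower. Cldn4, a tight junction protein, rose from 19.05 and 23.1 CPM to 57.9 and 51.2 CPM (log2 1.37 ± 0.16, adjusted p = 0.000868), and the matrix protein fibronectin, Fn1, from 539 and 544 CPM to 1306 and 995 CPM (log2 1.09 ± 0.14, adjusted p = 0.00109). Without QKO 1, QT7L1 1 and QT7L1 2 the rises numbered 2, 2 and 4. Of 24 axon guidance genes 6 rose and 2 fell, and the rises numbered 2, 3 and 2 without QKO 2, QT7L1 1 and QT7L1 2. Ephb3, a receptor for ephrin-B ligands, rose from 31.5 and 28.6 CPM to 64.2 and 60.2 CPM (log2 1.05 ± 0.15), and Efna1, an ephrin-A ligand, from 0.962 and 0.859 CPM to 6.57 and 4.32 CPM (log2 2.58 ± 0.39). Neuronal genes gave 3 rises and 2 falls among 17, with 1 rise without QKO 2, no fall without QKO 2, QT7L1 1 or QT7L1 2, and 5 falls without QT7 1 or without QT7 2. Grin1, the obligatory subunit of NMDA receptors, rose from 1.09 and 0.416 CPM to 7.63 and 7.13 CPM (log2 3.31 ± 0.36, adjusted p = 0.000727).

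Counts of the stress and lipid lists are to be set beside the same shares, 15.9% higher and 13.9% lower. Of 19 genes of the ATF4 response to amino acid shortage 4 rose and none fell, with 8 called higher without QKO 1 and 2 called without any of QKO 2, QT7L1 1 or QT7L1 2. Ddit3, the stress factor CHOP, rose from 7.57 and 6.51 CPM to 16.2 and 17.8 CPM (log2 1.27 ± 0.18, adjusted p = 0.00143). Of 21 cholesterol synthesis genes 2 rose and 1 fell, with 6 called higher without QKO 2 and none without any of QKO 1, QT7L1 1 or QT7L1 2. Apoe, a lipid carrier outside that list, rose from 243 and 306 CPM to 668 and 585 CPM (log2 1.19 ± 0.16, adjusted p = 0.00131), and the lipoprotein receptor Vldlr from 2.02 and 0.748 CPM to 8.87 and 11.2 CPM (log2 2.87 ± 0.44, adjusted p = 0.00252). Of 9 DNA methylation genes 3 fell and none rose. Dnmt3l, among those that fell, lost its call without QKO 2 (log2 -0.56) and without QT7L1 1 (log2 -0.68). Tet2 lost its call in the settings given above.

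Outside the lists, the genes with the largest folds and the smallest p-values had varied roles. Among those that rose, A2m, a protease inhibitor, was at 5.65 and 5.88 CPM in QKO and 36.1 and 61.1 CPM in QT7L1 (log2 3.08 ± 0.26, adjusted p = 0.000653). Atp6v0a4, a subunit of the proton pump, was at 1.05 and 1.16 CPM against 8.93 and 7.64 CPM (log2 2.90 ± 0.37). Pnrc1, a nuclear receptor coregulator, was at 14.2 and 13.3 CPM against 37.0 and 42.8 CPM (log2 1.54 ± 0.13). Each of these had both QT7L1 libraries above both QKO libraries, which the rule for naming genes outside the lists required. Palm, Clic1 and Zfp395 rose with log2 differences of 1.28 to 1.99 and an adjusted p of 0.000525 each.

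Among those that fell, Epop, a partner of Polycomb complexes in ES cells, was at 602 and 584 CPM in QKO and 259 and 282 CPM in QT7L1 (log2 -1.13 ± 0.09, adjusted p = 0.000525). Rarg, a retinoic acid receptor, was at 423 and 395 CPM against 182 and 218 CPM (log2 -1.03 ± 0.11, adjusted p = 0.000653). Bysl, needed for ribosome assembly, was at 165 and 172 CPM against 87.3 and 86.2 CPM (log2 -0.96 ± 0.09), and Srm, which makes the polyamine spermidine, at 383 and 390 CPM against 212 and 197 CPM (log2 -0.92 ± 0.10). The groups did not overlap for these genes either, by the same rule. Soga3 fell from 90.4 and 116 CPM to 24.7 and 30.8 CPM, and Calcoco2, a receptor for selective autophagy, from 32.5 and 23.1 CPM to 8.42 and 4.81 CPM (log2 -2.07 ± 0.32, adjusted p = 0.00235). Anxa1, Klk10 and Arhgef26 fell with log2 differences of -2.09 to -2.50.

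Set against WT, QT7L1 differed at 123 genes (0.745% of those tested), 49 higher and 74 lower, with 2536 at an unadjusted p under 0.05. Against QT7 it differed at 1 gene (0.00606%), with 1830 at an unadjusted p under 0.05, and QT7 against QKO gave 4449 (26.9%). These comparisons share libraries with the one described here, so their values are given side by side and not as separate support. Ndufa4l2 had log2 differences of 5.0 ± 0.46 over QKO, 0.58 ± 0.36 over WT and 0.29 ± 0.36 over QT7, the last 2 not past the threshold (adjusted p = 0.498 and 0.798). Id3 had -1.85 ± 0.16 over QKO, 0.31 ± 0.16 over WT and -0.90 ± 0.16 over QT7 (adjusted p = 0.4 and 0.111 for the last 2). Genes called against WT included Lefty1, at -1.57 ± 0.15 (adjusted p = 0.005), Sp5, at -2.41 ± 0.41 (0.0323), and Nanog, at 0.57 ± 0.10 (0.0347). The gene called against QT7, Gm47283, a predicted gene on chrY:90784738-90816464, was at 104 and 89.5 CPM in QT7L1, 47.0 and 49.3 CPM in QT7 and 54.6 and 49.3 CPM in QKO. Its log2 difference over QT7 was 1.01 ± 0.11 (adjusted p = 0.0467) and over QKO 0.90 ± 0.11 (adjusted p = 0.000944). Levels on chrY differed between libraries of a group. Over 5 chrY genes the median log2 level relative to the WT mean was -0.13 and -1.54 in QT7. It was -1.67 and -0.46 in QKO and -1.13 and -0.82 in QT7L1. The number called against QT7 moved between 0 and 1396 when 1 library was left out, with 1396 without QT7 2 17 without WT 1, 17 without WT 2 and 3 without QT7 1. The number called against WT moved between 0 and 517, with 0 without QT7L1 2, 2 without QT7L1 1, 7 without WT 1, 76 without QKO 1, 517 without QT7 1 and 499 without QT7 2.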

How the data were processed

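The authors deposited raw HTSeq counts per Ensembl gene for each library. Per the submitters' processing notes, reads passed through bcl2fastq 1.8.4, STAR 2.4.0f1 and HTSeq on mm10 (GRCm38), and the strand setting is not given in the sources used here, so overlapping and antisense genes may share reads. The authors' comparison tables were not used. All 8 libraries were fitted with edgeR 4.0.16 (R 4.3.3): filterByExpr, TMM, a robust quasi-likelihood model with 1 mean per group and 4 residual degrees of freedom, 2-sided tests and Benjamini-Hochberg adjustment, called under 0.05. The spread is pooled over the 4 groups of 2. SE is the absolute log2 difference divided by the square root of F. CPM use TMM. The scripts were tested on simulated data. Symbols and coordinates come from GENCODE M21 (47224 of 47729 identifiers).

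Named genes have the largest folds or smallest p-values among called genes whose mean log2 CPM reached 2 and whose libraries do not overlap, or are members of the 34 lists, and some genes the rule selects are not reported here. The members and lists were chosen with earlier results of these data known. Alternatives were DESeq2 1.42.0, other scalings and filters, a replicate block, a fit of 2 groups and leaving out each library. A crossed block was added after seeing the data.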

Additional observations from a re-analysis of the deposited data

How the results depend on the processing

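Among 139 named genes called between QT7L1 and QKO, 98 kept their call under every alternative, and 1 value changed sign: Tcf7, not called, had a log2 difference of 0.51 without QKO replicate 2 and -0.78 without QKO replicate 1, against -0.29 with both. The 139 come from a set of genes picked for this check. Some of them are not reported here, and some genes named above, such as Pou4f2, are not among them. The 4912 calls became 4896 with DESeq2 size factors, 4872 without TMM (62.66% of them higher, against 53.4%), 5749 with every gene that had a count, 4716 with a CPM of at least 1, 4847 in DESeq2 and 6202 with only these groups. Leaving out 1 library gave 1773 to 5982, 638 to 1412 genes at least 2-fold higher and 252 to 795 at least 2-fold lower. Against WT, 123 became 1248 with every gene, 568 in DESeq2, 655 with only these groups, and 0 to 517 with 1 library left out. Against QT7, 1 became 4 without TMM, 1030 with every gene, 0 with a CPM of at least 1, 235 in DESeq2, 19 with only these groups, and 0 to 1396 with 1 library left out. The cause of these shifts was not tested, apart from the number of genes tested under each filter.

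The replicate numbers name clones in QKO and QT7L1, and the main fit did not pair them. Deviations of same-numbered libraries from their group means were correlated across genes. QT7L1 gave -0.1681 with QKO, 0.04066 with WT and 0.1629 with QT7. With 2 libraries a group the deviations mirror each other, so each value is 1 comparison and cannot show whether numbers pair the groups. With a replicate block 4853 genes were called, and 2 against QT7. With the QKO numbers exchanged, added after seeing the data, 5625 were called, 56 against QT7 and 402 against WT. With 2 clones a group, leaving out a library leaves 1 that is assumed to vary like the other groups.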
